A study of Solanum lycopersicum with 18 samples.

Results

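The leaf response to 8 h of NaCl was examined in Micro-TOM-EX, the second of the 2 tomato materials in the series. The comparison set the 3 libraries labelled Micro-TOM-EX with 8 h of salt (EX8r1, EX8r2 and EX8r3) against the 3 labelled Micro-TOM-EX at 0 h (EX0r1, EX0r2 and EX0r3), 6 of the 18 libraries of the series. The other 12 libraries came from Micro-TOM-EX at 2 h and from Micro-TOM, the dwarf laboratory cultivar, at 0, 2 and 8 h, again with 3 libraries a group. Plants of every group grew in soil in a greenhouse with 16 h of light a day, and whole leaves were sampled. The labels give neither the salt dose, nor what sets Micro-TOM-EX apart from Micro-TOM, nor whether a group's 3 libraries represent different plants, so p-values cover the spread between these samples alone. Leaves kept without salt until 8 h were not analysed here, so the salt and the hour of day cannot be told apart in any comparison of 8 h with 0 h.

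Salt reaches leaves through the roots as lost water uptake first and as sodium later. Plants respond with the hormone abscisic acid, which closes stomata and, through its receptors, type 2C phosphatases and SnRK2 kinases, switches on genes for protective hydrophilic proteins and small sugars. Sodium is held out of the cytosol by exchangers driven by proton pumps, and growth and photosynthesis are commonly reduced. Many leaf transcripts also follow the circadian clock, in which factors such as LHY peak at dawn and GIGANTEA peaks towards dusk.

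Levels are in FPKM, a unit that scales fragments by transcript length and library size, so that levels of different genes can be compared per length. The spacing of the deposited values put depth at 19300000 to 20100000 fragments in the 8 h libraries and 18200000 to 18750000 fragments in the 0 h libraries. One library stood apart: log2 levels of EX0r2 correlated at 0.969 and 0.976 with EX0r1 and EX0r3, which correlated at 0.993 with each other, while the 8 h libraries correlated at 0.98 to 0.983. In EX0r2, 78 genes lay at least 4-fold above both other 0 h libraries (on the FPKM + 1 scale) and 0 lay 4-fold below, against 0 to 18 above and 0 to 11 below in each of the other 5 libraries. Of these 78 genes, 45 were higher and 7 lower at 8 h by the test used here, where 35.5% and 35.8% of all genes tested were. In 43 of the 78 every 8 h library lay above EX0r2. The 78 were picked by a 0 h library that is part of the same test, so these counts are descriptive only. List medians and fold changes of named genes that moved by over 1.5 times when this library was left out are given both ways, those of the 10 largest rises as a range.

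Of 18402 genes tested, 13115 differed between 8 h and 0 h in Micro-TOM-EX at a limma adjusted p under 0.05, which is 71.3% of them. At 8 h 6527 genes (35.5%) were higher and 6588 (35.8%) lower, and the median log2 change over all genes was -0.004, with a median standard error (SE) of 0.169. A change of at least 2-fold was reached by 7041 genes (38.3%), 3272 higher and 3769 lower, and of at least 16-fold by 286 and 206. In 74.7% of the genes tested the 3 libraries of 8 h did not overlap those of 0 h. With so large a share of the leaf transcriptome past the threshold, each gene list is described by its counts and median, to be read against these shares. Values after ± are SEs of the log2 change on the log2(FPKM + 1) scale, which understates changes of genes at low level, and adjusted p is that of limma over all 18402 genes.

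**Figure D1:**
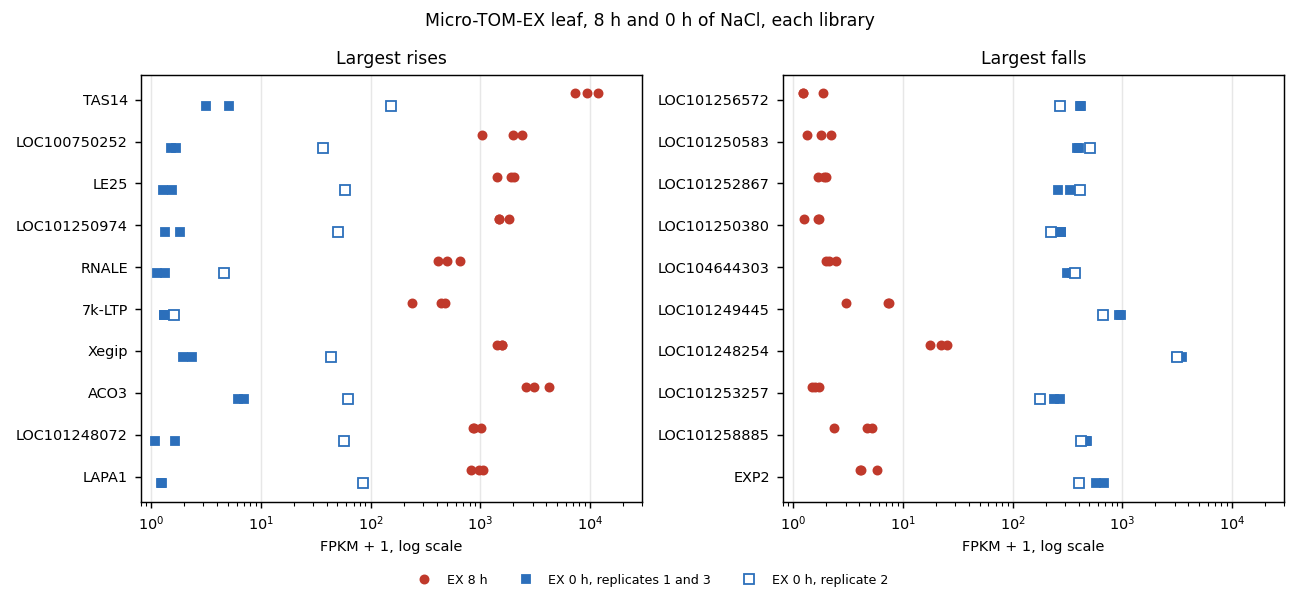
Levels of the 10 genes with the largest rises (left) and the 10 with the largest falls (right) in each Micro-TOM-EX library, as FPKM + 1 on a log scale; circles are the 3 libraries of 8 h and squares the 3 of 0 h, with EX0r2 drawn open. Genes with overlapping groups were left out by the choice, and EX0r2 lies between the other 0 h libraries and the 8 h libraries in most of the rises, as for TAS14 at 152 FPKM.

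The largest rises included genes for a dehydrin, other proteins of drying cells, a wound-induced peptidase and a homolog of an ethylene-forming oxidase. The dehydrin gene TAS14 (gene ID 544056, chromosome 2, 47925826 to 47926789), a hydrophilic protein first known as induced by abscisic acid and salt in tomato, had 11909.8, 9386 and 7367 FPKM at 8 h, against 2.15, 152 and 4.14 FPKM at 0 h. The late embryogenesis abundant (LEA) protein LE25 (chromosome 10, 60481791 to 60482819) had 2037, 1917 and 1436 FPKM at 8 h, against 0.28, 57.6 and 0.54 FPKM at 0 h. Its relative LOC100750252 (chromosome 3, 65857632 to 65858470) had 1992, 2387 and 1027 FPKM at 8 h, against 0.52, 35.6 and 0.68 FPKM at 0 h. In each of these 3 genes EX0r2 was by far the highest 0 h library, and it lay under every 8 h library. The aldo-keto reductase 4B gene LOC101250974 (chromosome 3, 60441624 to 60443845), an oxidoreductase, had 1845, 1473 and 1491 FPKM at 8 h, against 0.34, 49.2 and 0.82 FPKM at 0 h. The desiccation-related protein LOC101248072 (chromosome 2, 33990108 to 33991711) had 876, 1009.8 and 863 FPKM at 8 h, against 0.08, 56.1 and 0.66 FPKM at 0 h. The ribonuclease RNALE (chromosome 5, 2373130 to 2374737), an RNA-degrading enzyme of the T2 class, had 501, 647 and 414 FPKM at 8 h, against 0.14, 3.66 and 0.35 FPKM at 0 h. The lipid-transfer protein 7k-LTP (chromosome 2, 49003252 to 49003752) had 443, 235 and 473 FPKM at 8 h, against 0.31, 0.61 and 0.3 FPKM at 0 h. The groups did not overlap in any of them, which was a condition of the choice.

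The others of the 10 were an enzyme inhibitor, an oxidase and a peptidase. Xegip (chromosome 1, 79139212 to 79140674), a secreted inhibitor of a fungal cell wall enzyme, had 1569, 1423 and 1589.9 FPKM at 8 h, against 0.96, 42.8 and 1.34 FPKM at 0 h. ACO3 (chromosome 9, 69298968 to 69301203), named after the oxidase that makes ethylene, had 4206, 3088 and 2625 FPKM at 8 h, against 6.06, 61.4 and 5.18 FPKM at 0 h. Leucine aminopeptidase LAPA1 (chromosome 12, 3151787 to 3155297), a wound-induced plastid peptidase, had 969.7, 1054 and 817 FPKM at 8 h, against 0.24, 84.8 and 0.26 FPKM at 0 h, with EX0r2 again far above the other 0 h libraries and below those of 8 h. The 10 rises had log2 changes of 7.52 to 9.43 (SE 0.39 to 1.07, limma adjusted p from 6.7e-11 to 1.1e-05), and 8.14 to 11.19 in the fit without EX0r2.

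The largest falls included genes of families named for growth, a pair of chloroplast proteins and a pair of transcription factors. The zinc finger gene LOC101256572 (chromosome 12, 63797799 to 63804002), named ZAT10-like after a stress-induced repressor of Arabidopsis, had 0.22, 0.23 and 0.85 FPKM at 8 h, against 418, 267 and 412 FPKM at 0 h. The auxin-binding protein gene LOC101250583 (ABP19a, chromosome 3, 70267484 to 70268419) had 0.33, 1.21 and 0.79 FPKM at 8 h, against 382, 511 and 398 FPKM at 0 h. A pair of GAST1 family genes, a family found by its induction with gibberellin in tomato, fell. LOC101252867 (chromosome 4, 7793686 to 7795006) had 0.9, 0.98 and 0.67 FPKM at 8 h, against 257, 413 and 335 FPKM at 0 h. LOC101248254 (chromosome 2, 51199075 to 51200095) had 24.1, 16.6 and 21.4 FPKM at 8 h, against 3066, 3165 and 3492 FPKM at 0 h. Before salt LOC101248254 was among the more abundant leaf transcripts, and EX0r2 did not stand apart in it.

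A pair of EXORDIUM-like genes, relatives of a growth promoter of Arabidopsis, likewise fell. LOC101250380 (chromosome 3, 53511702 to 53513109) had 0.7, 0.68 and 0.25 FPKM at 8 h, against 272, 223 and 276 FPKM at 0 h. LOC104644303 (chromosome 4, 60437911 to 60439062) had 1, 1.1 and 1.47 FPKM at 8 h, against 309.6, 367 and 347 FPKM at 0 h. The expansin EXP2 (chromosome 6, 32332450 to 32334159), which loosens cell walls, had 3.11, 4.83 and 3.05 FPKM at 8 h, against 568, 399 and 685 FPKM at 0 h. These wall and growth genes were thus within a few FPKM of 0 in all libraries of 8 h. The ethylene response factor LOC101253257 (ERF017, chromosome 12, 2519632 to 2520698) had 0.56, 0.49 and 0.73 FPKM at 8 h, against 268, 175 and 236 FPKM at 0 h. The chloroplast genes of the set were LOC101249445, subunit B of the glyceraldehyde-3-phosphate dehydrogenase of carbon fixation (chromosome 12, 64806338 to 64815192), with 2.01, 6.39 and 6.33 FPKM at 8 h, against 939, 662 and 976 FPKM at 0 h, and LOC101258885, a subunit of the NDH complex of cyclic electron flow (chromosome 8, 65830546 to 65831741), with 1.33, 4.24 and 3.71 FPKM at 8 h, against 465, 421 and 472 FPKM at 0 h. The 10 falls had log2 changes of -8 to -6.87 (SE 0.22 to 0.52, limma adjusted p from 8.9e-13 to 3.3e-09), and -8.21 to -6.93 without EX0r2. They too were chosen among genes without overlap of the groups, and both sets among those with at least 5 FPKM in the higher group and a descriptive name. Over all genes tested the smallest log2 change was -8.2.

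**Figure D2:**
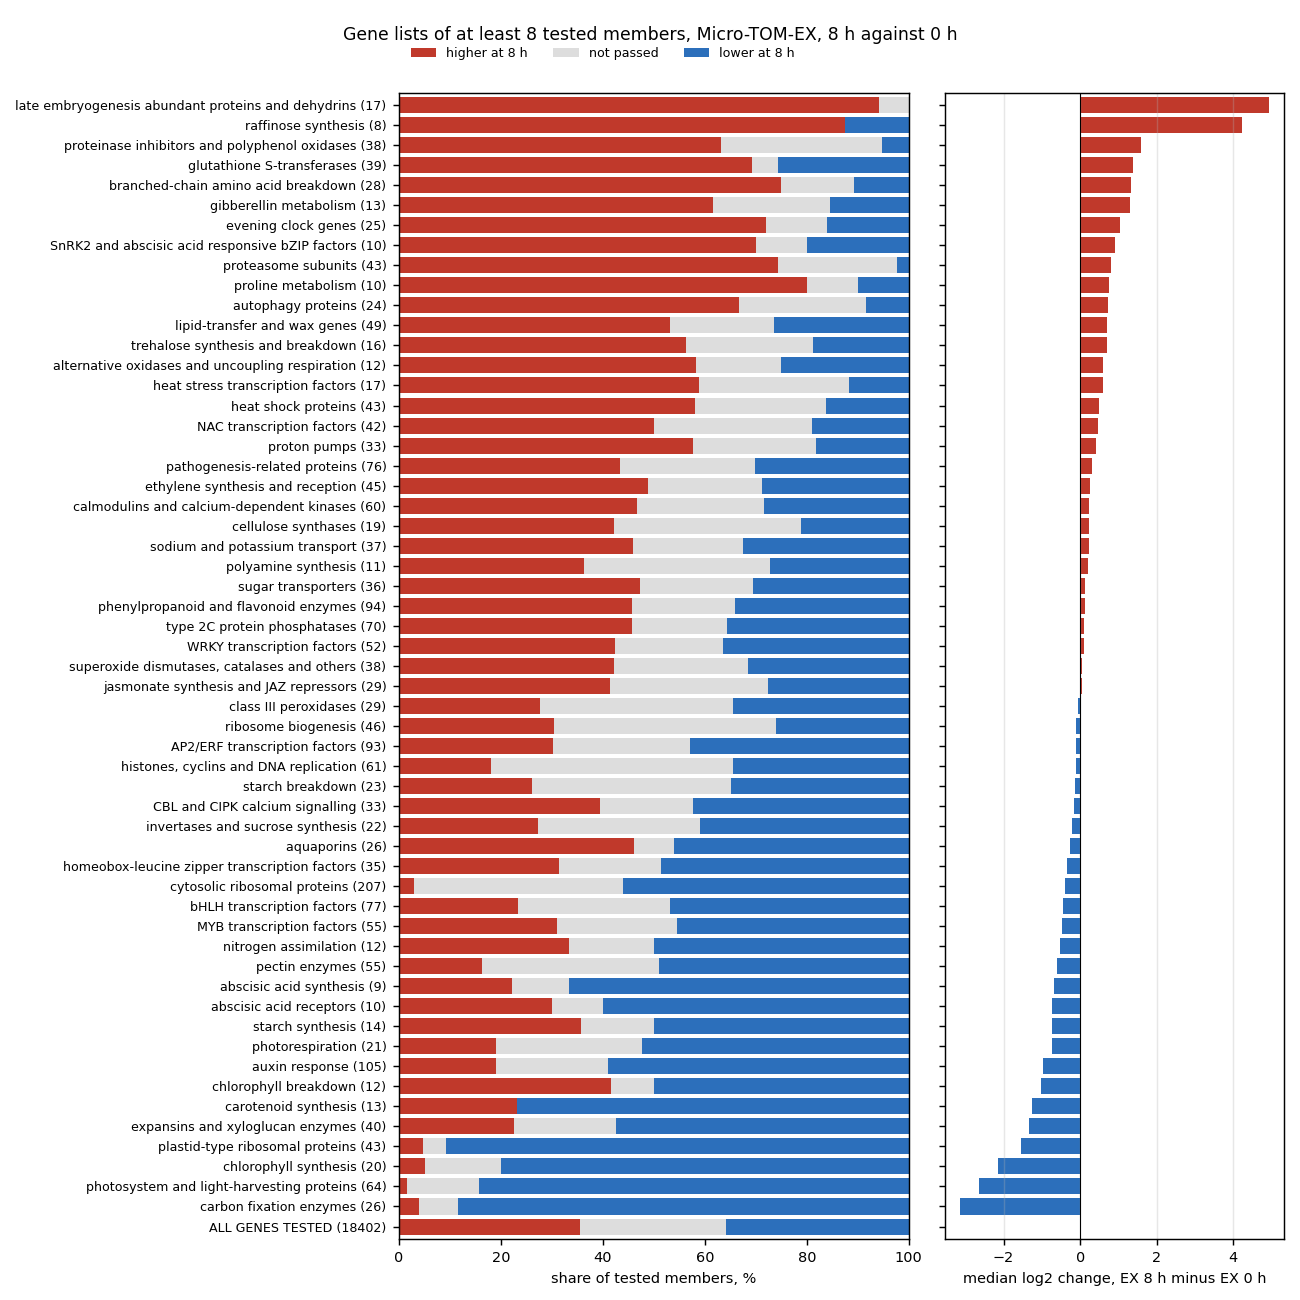
Gene lists with at least 8 tested members, ordered by their median, with the number tested in brackets and all genes tested in the last row. Left, the share of members in % that were higher at 8 h, did not pass, or were lower at 8 h; right, the median log2 change, 8 h minus 0 h. LEA proteins head the order at 4.93 and carbon fixation enzymes end it at -3.14, while all genes stand at -0.004.

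LEA proteins and dehydrins, which shield membranes and proteins of drying cells, rose almost throughout. Of the 17 that were tested, of 26 in the table, 16 rose and 0 fell, while 1 missed the threshold (median log2 change 4.93, 5.37 without EX0r2). The most abundant was the dehydrin dhn, with 13461, 13545 and 8499.7 FPKM at 8 h and 93.2, 414 and 104 FPKM at 0 h (log2 change 6.18 ± 0.48, or 6.87 without EX0r2, limma adjusted p = 1.3e-08). The member that did not pass was LOC101244907, a PCC13-62-like desiccation protein, at 0.05, 1.3 and 0.57 FPKM at 8 h and 0.05, 1.1 and 0.39 FPKM at 0 h, where the groups overlap. The 17 members summed to 29066 to 46141 FPKM in the 8 h libraries and 438.7 to 1376.5 FPKM in those of 0 h, with EX0r2 highest at 0 h. At 2 h, a comparison that shares the 0 h libraries, the median change of the list was 3.54, and TAS14 had 1222, 2061 and 1394 FPKM.

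Chaperones moved less. Of 43 heat shock proteins tested, 25 rose and 7 fell, while 11 missed the threshold (median log2 change 0.5, 0.73 without EX0r2). The sum of the 43 went the other way, at 3191 to 4049.5 FPKM in the 8 h libraries and 4195.5 to 4998.6 FPKM in those of 0 h. The mitochondrial small heat shock protein MTSHP had 11.8, 20.2 and 18.7 FPKM at 8 h and 0, 0.43 and 0 FPKM at 0 h (log2 change 3.96 ± 0.21, limma adjusted p = 2e-10). The 18.1 kDa class I protein LOC101263239 had 56.8, 55.1 and 90.6 FPKM at 8 h and 301, 261 and 279.6 FPKM at 0 h (-2.08 ± 0.23, adjusted p = 5.8e-07). The most abundant member, the heat shock cognate LOC101247151, had 1469.7, 1672 and 1983 FPKM at 8 h and 2282, 1908 and 2016 FPKM at 0 h, its groups overlapped, and it did not pass (adjusted p = 0.12, and 0.046 without EX8r3). Among 17 heat stress transcription factors, which control chaperone genes, 10 rose and 2 fell, while 5 missed the threshold (median log2 change 0.59, 0.57 without EX0r2). Factor B-3 (LOC101266325) had 28.6, 20.7 and 29.2 FPKM at 8 h and 0.13, 0.49 and 0.04 FPKM at 0 h (4.48 ± 0.25, adjusted p = 3.4e-10). Those that fell were LOC101259859 (A-4c-like, -3.18 ± 0.50, adjusted p = 3e-05) and LOC101266046 (A-2-like, -0.85 ± 0.28, adjusted p = 0.012), the second with an adjusted p of 0.051 without EX8r1.

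Most genes for raffinose, proline and trehalose, small protective solutes, rose. Galactinol synthases start, and the galactosyltransferases complete, the synthesis of raffinose sugars, which build up in dry leaves. Of 8 raffinose genes tested, 7 rose and 1 fell, while 0 missed the threshold (median log2 change 4.23, 4.37 without EX0r2). The raffinose synthase-like gene LOC101257623 (galactinol-sucrose galactosyltransferase) had 172, 328 and 104 FPKM at 8 h and 0.61, 4.13 and 1.07 FPKM at 0 h (log2 change 6.14 ± 0.39, limma adjusted p = 1.2e-09). Galactinol synthase GolS-1 had 77.4, 78.6 and 25.3 FPKM at 8 h and 0.1, 0.2 and 0.05 FPKM at 0 h (5.62 ± 0.33, adjusted p = 5.6e-10). GolS2 had 78.3, 123 and 69.7 FPKM at 8 h and 3.28, 4.8 and 2.77 FPKM at 0 h (4.29 ± 0.23, adjusted p = 2.1e-10). At 2 h GolS2 had been higher still, at 237, 369.6 and 222 FPKM. A low-level copy, LOC101244339, had 3.68, 3.44 and 4.25 FPKM at 8 h and 0.1, 0.3 and 0.1 FPKM at 0 h (2.04 ± 0.17, adjusted p = 3.8e-08). The galactinol synthase that fell, LOC101261450, had 0.73, 1.16 and 0.5 FPKM at 8 h and 4.19, 5.95 and 6.01 FPKM at 0 h (-1.83 ± 0.26, adjusted p = 1.3e-05), after 30.8, 29.8 and 27.6 FPKM at 2 h, above each 0 h library.

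Proline is another solute of stressed leaves, made by pyrroline-5-carboxylate synthase (P5CS) and broken down by proline dehydrogenase. Of 10 proline genes, 8 rose and 1 fell, while 1 missed the threshold (median log2 change 0.74, 0.83 without EX0r2). The P5CS gene LOC101244293 had 49.8, 58.2 and 42.9 FPKM at 8 h and 13.2, 23.8 and 15.6 FPKM at 0 h (log2 change 1.5 ± 0.22, limma adjusted p = 1.8e-05). PRO2, another P5CS gene, had 45.3, 43.2 and 47.9 FPKM at 8 h and 36, 35.4 and 35 FPKM at 0 h (0.35 ± 0.11, adjusted p = 0.008). Another, LOC101250107, had 4.11, 3.15 and 4.49 FPKM at 8 h and 4.91, 5.06 and 4.68 FPKM at 0 h and did not pass (adjusted p = 0.14). Proline dehydrogenase PDH, the first step of breakdown, had 2.75, 2.66 and 1.56 FPKM at 8 h and 43.1, 49.8 and 29 FPKM at 0 h (-3.63 ± 0.28, adjusted p = 1e-08). At 2 h the median change of the list was -0.32, and LOC101244293 had 13.8, 12.4 and 11.3 FPKM. Of 16 trehalose genes 9 rose and 3 fell, while 4 missed the threshold (median log2 change 0.69, 0.59 without EX0r2), and TPS1, which makes the signal sugar trehalose-6-phosphate, had 293, 251 and 284 FPKM at 8 h and 10.8, 19 and 10.1 FPKM at 0 h (4.33 ± 0.17, adjusted p = 1.1e-11). Polyamine synthesis held 4 and 3 of 11 (median 0.2, 0.43 without EX0r2) higher and lower, with the decarboxylase SAMDC at 1043, 958 and 967 FPKM at 8 h and 319, 445 and 331 FPKM at 0 h (1.45 ± 0.15, adjusted p = 2.6e-07) and its relative LOC101260400 at 521, 668 and 348 FPKM at 8 h and 942, 977 and 885 FPKM at 0 h (-0.91 ± 0.23, adjusted p = 0.0022).

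The genes of abscisic acid synthesis and of its breakdown each changed in both directions. Synthesis genes held 2 and 6 of 9 higher and lower (median log2 change -0.69, -0.67 without EX0r2). The dioxygenase NCED5 (LOC100316877), of the enzyme family that commits carotenoids to the hormone, had 0.61, 0.67 and 0.58 FPKM at 8 h and 7.51, 9.68 and 9.61 FPKM at 0 h (log2 change -2.61 ± 0.13, limma adjusted p = 1e-10), after 12.2, 11.5 and 10.4 FPKM at 2 h. NCED6 (LOC101246826) did not reach the level for testing, at 0.14, 0.08 and 0.08 FPKM at 8 h and 0, 0.06 and 0 FPKM at 0 h. The members that rose were zeaxanthin epoxidase (LOC544162), an early enzyme, with 115, 129 and 121 FPKM at 8 h and 59, 61.2 and 64.2 FPKM at 0 h (0.97 ± 0.19, adjusted p = 0.00021), and FLACCA, the sulfurase that activates the last enzyme, with 5.77, 6.09 and 5.96 FPKM at 8 h and 3.09, 4.16 and 2.73 FPKM at 0 h (0.7 ± 0.13, adjusted p = 0.00015). The sulfurase-like LOC101250087 had 1.82, 1.36 and 1.47 FPKM at 8 h and 13.8, 18.2 and 15.4 FPKM at 0 h (-2.72 ± 0.17, adjusted p = 1.1e-09).

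Breakdown starts with abscisic acid 8'-hydroxylases, of which 4 were tested and 2 rose. LOC101254720 had 144, 191 and 70.5 FPKM at 8 h and 0.04, 4.05 and 0 FPKM at 0 h (log2 change 6.18 ± 0.51, or 6.95 without EX0r2, limma adjusted p = 2.4e-08). LOC101266767 had 241, 162 and 286 FPKM at 8 h and 0.64, 11.5 and 0.7 FPKM at 0 h (6.1 ± 0.55, or 7.07 without EX0r2, adjusted p = 6.7e-08). In both, EX0r2 was the highest of the 0 h libraries and lay far below those of 8 h. Another, LOC101249565, fell, with 5.36, 11 and 12.5 FPKM at 8 h and 146, 179.6 and 115 FPKM at 0 h (-3.85 ± 0.33, adjusted p = 3.3e-08). Transcripts for different 8'-hydroxylases were thus abundant before salt and after 8 h of it.

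Downstream, 3 and 6 of 10 abscisic acid receptors were higher and lower (median log2 change -0.73, -0.61 without EX0r2). PYL4 (LOC101250944) had 1.46, 1.61 and 1.31 FPKM at 8 h and 25.4, 20.1 and 29.1 FPKM at 0 h (log2 change -3.38 ± 0.18, limma adjusted p = 2e-10). The most abundant, PYL9 (LOC101258886), had 27.9, 22.6 and 24 FPKM at 8 h and 44.6, 43.6 and 45 FPKM at 0 h (-0.82 ± 0.16, adjusted p = 0.00028). Those that rose were the PYR1-like LOC101268417 (1.04 ± 0.19, adjusted p = 0.00017), PYL8 (LOC101251256, 0.78 ± 0.19, adjusted p = 0.0019) and a second PYL4 gene, LOC101258963 (0.91 ± 0.19, adjusted p = 0.00042). Type 2C phosphatases, some of which hold the pathway off until the receptor binds them, held 32 and 25 of 70 higher and lower (median log2 change 0.09, 0.11 without EX0r2). Among them LOC101258071 had 88.5, 147 and 62.5 FPKM at 8 h and 0.77, 2.16 and 0.87 FPKM at 0 h (5.43 ± 0.26, adjusted p = 5.9e-11). PP2C 51 (LOC101249794) had 513, 432 and 485 FPKM at 8 h and 49.1, 48.8 and 42.1 FPKM at 0 h (3.32 ± 0.12, adjusted p = 4.3e-12). PP2C 34 (LOC101265959) had 0.19, 0.15 and 0.04 FPKM at 8 h and 26, 50.6 and 40.3 FPKM at 0 h (-5.1 ± 0.19, adjusted p = 4.6e-12). The kinases and bZIP factors at the end of the pathway held 7 and 2 of 10 (median log2 change 0.92, 0.94 without EX0r2). The SnRK2 kinase SRK2I (LOC101251432) had 143, 129.8 and 136 FPKM at 8 h and 7.04, 6.64 and 5.75 FPKM at 0 h (4.2 ± 0.12, adjusted p = 6.2e-13), with 9.31, 12.9 and 11.3 FPKM at 2 h. AREB, a bZIP factor that binds abscisic acid response elements, had 190.4, 251 and 162 FPKM at 8 h and 29.4, 28.6 and 28.4 FPKM at 0 h (2.74 ± 0.14, adjusted p = 9.4e-11). The SnRK2-type kinase SAPK2 (LOC101261086, -1.82 ± 0.20, adjusted p = 7.7e-07) and the ABI5-like factor LOC101259896 (-0.62 ± 0.13, adjusted p = 0.00045) fell.

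Named sodium exchangers of the vacuole and the plasma membrane that passed the test rose. NHX proteins move sodium or potassium into vacuoles against protons, and SOS1 exports sodium from the cell. Of 37 sodium and potassium transport genes, 17 rose and 12 fell, while 8 missed the threshold (median log2 change 0.22, 0.23 without EX0r2). The exchanger nhx4 had 155, 149.7 and 114 FPKM at 8 h and 6.2, 7.53 and 6.02 FPKM at 0 h (log2 change 4.2 ± 0.24, limma adjusted p = 4.4e-10). The gene nhx3 had 117, 113 and 75.4 FPKM at 8 h and 8.27, 13.2 and 10.6 FPKM at 0 h (3.13 ± 0.17, adjusted p = 3.2e-10). NHX1 had 40.4, 37.5 and 18.6 FPKM at 8 h and 7.47, 9.83 and 6.75 FPKM at 0 h (1.82 ± 0.29, adjusted p = 3.3e-05). NHX2 had 21.8, 20.9 and 24.5 FPKM at 8 h and 10.9, 13 and 11 FPKM at 0 h (0.89 ± 0.10, adjusted p = 1.4e-06). The gene sos1 had 22.6, 20.2 and 20.3 FPKM at 8 h and 12.5, 13.2 and 11.8 FPKM at 0 h (0.7 ± 0.13, adjusted p = 0.00016). At 2 h sos1 had 5.39, 3.49 and 3.58 FPKM and NHX1 3.56, 4.5 and 3.34 FPKM, each below all libraries of 0 h and of 8 h. The exchanger 8-like gene LOC101263995 had 2.14, 2.02 and 3.63 FPKM at 8 h and 2.2, 2.51 and 2.02 FPKM at 0 h, its groups overlapped, and it did not pass (adjusted p = 0.48).

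HKT1;2, which takes sodium out of the xylem stream, had 0.45, 1.03 and 1.55 FPKM at 8 h and 6.06, 8.74 and 6.7 FPKM at 0 h (log2 change -2.05 ± 0.28, limma adjusted p = 7.8e-06), after 7.37, 17.9 and 11.8 FPKM at 2 h. The related HKT1;1 (LOC101245180) was at 0.43, 0.59 and 0.23 FPKM at 8 h and 0.35, 0.39 and 0.29 FPKM at 0 h, below the level for testing, as was exchanger 4 (LOC104649491), at 0.06, 0.11 and 0 FPKM at 8 h and 0, 0 and 0 FPKM at 0 h. The cation/proton antiporter LOC101249848 had 0.04, 0.21 and 0.1 FPKM at 8 h and 4.26, 21.7 and 12.2 FPKM at 0 h (-3.38 ± 0.37, adjusted p = 5.8e-07). The potassium channel subunit LOC101265522, the most abundant of the list, had 202, 209 and 165 FPKM at 8 h and 75.3, 113 and 91 FPKM at 0 h (1.05 ± 0.13, adjusted p = 2.5e-06). Proton pumps, whose gradient drives these exchangers, held 19 and 6 of 33 higher and lower (median log2 change 0.4, 0.51 without EX0r2). V-ATPase subunit E (LOC101265947) had 229.9, 234 and 216 FPKM at 8 h and 39.3, 71.6 and 40.8 FPKM at 0 h (2.2 ± 0.18, adjusted p = 2e-08). Subunit c''1 (LOC101268694) had 48.7, 43.8 and 34.6 FPKM at 8 h and 83.6, 85.3 and 87.3 FPKM at 0 h (-1.01 ± 0.16, adjusted p = 3e-05).

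Calcium signalling and water channels changed in both directions. CBL and CIPK genes, calcium sensors and the kinases they switch on, held 13 and 14 of 33 (median -0.15, -0.26 without EX0r2) higher and lower, and calmodulins and calcium-dependent kinases 28 and 17 of 60 (median 0.24). CIPK11 had 30.2, 63.1 and 16.1 FPKM at 8 h and 4.37, 5.65 and 5.81 FPKM at 0 h (log2 change 2.38 ± 0.36, limma adjusted p = 2.4e-05). CIPK20 (LOC101251538) had 6.36, 10.8 and 7.43 FPKM at 8 h and 81.2, 79.6 and 90.5 FPKM at 0 h (-3.23 ± 0.18, adjusted p = 2.5e-10). The calmodulin gene SlCaM2 had 2241, 2171 and 1240.4 FPKM at 8 h and 462, 563 and 462 FPKM at 0 h (1.88 ± 0.29, adjusted p = 2.6e-05), after 3634, 4333 and 4242 FPKM at 2 h. Aquaporins, the water channels of the plasma membrane (PIP) and vacuole (TIP), held 12 and 12 of 26 (median log2 change -0.27, -0.21 without EX0r2). The TIP3-2-like LOC101251154 had 446, 212 and 251 FPKM at 8 h and 1.43, 15.1 and 0.94 FPKM at 0 h (6.09 ± 0.58, or 7.05 without EX0r2, adjusted p = 1.3e-07). The PIP-type LOC100736527 had 11.2, 17.9 and 10.8 FPKM at 8 h and 422, 484 and 457 FPKM at 0 h (-5.03 ± 0.38, adjusted p = 8.6e-09). PIP2-1 (LOC101258434) had 147, 108 and 150.4 FPKM at 8 h and 763, 739.5 and 830.4 FPKM at 0 h (-2.53 ± 0.27, adjusted p = 4.1e-07). PIP2-1 was lower still at 2 h, with 22, 19.9 and 13.7 FPKM.

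Genes that handle reactive oxygen did not move as a block. Superoxide dismutases, catalases, peroxiredoxins and the ascorbate and glutathione cycle held 16 and 12 of 38 higher and lower (median log2 change 0.05, 0.2 without EX0r2). The lipid hydroperoxide-reducing glutathione peroxidase GPXle-1 had 1098, 1163 and 1128 FPKM at 8 h and 53.2, 97.9 and 56.9 FPKM at 0 h (log2 change 4.06 ± 0.19, limma adjusted p = 6.5e-11). CAT2, a catalase, which breaks down hydrogen peroxide, had 341, 304 and 351 FPKM at 8 h and 1813, 1029 and 1729.9 FPKM at 0 h (-2.15 ± 0.21, adjusted p = 1.9e-07). The chloroplast peroxiredoxin Q (LOC101243905) had 5.2, 10.6 and 8.73 FPKM at 8 h and 64.8, 89.9 and 66.8 FPKM at 0 h (-3.06 ± 0.36, adjusted p = 1.3e-06). Glutathione S-transferases, which tag reactive compounds, held 27 and 10 of 39 (median log2 change 1.37, 1.36 without EX0r2). Transferase T1 (LOC101265520) had 408, 434 and 300.4 FPKM at 8 h and 16.5, 31.6 and 19 FPKM at 0 h (4.07 ± 0.26, adjusted p = 1.5e-09). U17-like (LOC101255298) had 34.7, 42.5 and 48.1 FPKM at 8 h and 293, 231 and 289 FPKM at 0 h (-2.67 ± 0.17, adjusted p = 1.8e-09). Class III peroxidases, secreted enzymes of the wall, held 8 and 10 of 29 (median -0.05, -0.02 without EX0r2). Peroxidase 42 (LOC101253648), the most abundant, had 66.5, 438 and 210.2 FPKM at 8 h and 79.5, 189 and 117 FPKM at 0 h, with overlapping groups, and did not pass (adjusted p = 0.37, and 0.038 without EX8r1).

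Bypass routes of mitochondrial respiration held 7 and 3 of 12 higher and lower (median log2 change 0.6, 0.56 without EX0r2). Alternative oxidase 1b (LOC543825), which passes electrons to oxygen without pumping protons, had 115, 169.9 and 243 FPKM at 8 h and 0.57, 3.39 and 0.37 FPKM at 0 h (log2 change 6.32 ± 0.34, limma adjusted p = 2.1e-10), below its level of 598, 514 and 538 FPKM at 2 h. The genes that fell were the internal NAD(P)H dehydrogenase LOC101266519, with 0.42, 0.79 and 0.45 FPKM at 8 h and 67.4, 48.4 and 64.8 FPKM at 0 h (-5.29 ± 0.33, adjusted p = 1.2e-09), and uncoupling protein 5 and its relative, LOC101244142 (-3.45 ± 0.16, adjusted p = 5.8e-11) and LOC101258657 (-4.71 ± 0.12, adjusted p = 2e-13). The oxidase was thus among the 7 that rose, and these genes were the 3 that fell. The 12 genes summed to 316.59 to 486.21 FPKM in the 8 h libraries and 571.98 to 619.32 FPKM in those of 0 h. Groups did not overlap in the genes named here, which for the largest rise and fall of the list was a condition of the choice.

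Transcription factor families changed in both directions. More members were higher than lower among NAC factors, while WRKY factors were near even. More were lower than higher among AP2/ERF, MYB, bHLH and homeobox-leucine zipper factors. NAC factors, plant regulators of stress and senescence, held 21 and 8 of 42 higher and lower (median log2 change 0.46, 0.47 without EX0r2), WRKY factors 22 and 19 of 52 (median 0.09), AP2/ERF factors 28 and 40 of 93 (median -0.11), MYB factors 17 and 25 of 55 (median -0.47), bHLH factors 18 and 36 of 77 (median log2 change -0.45, -0.31 without EX0r2) and homeobox-leucine zipper factors 11 and 17 of 35 (median -0.35). The NAC factor LOC101244582 had 213, 165 and 270.4 FPKM at 8 h and 2.19, 4.27 and 1.73 FPKM at 0 h (log2 change 5.89 ± 0.31, limma adjusted p = 1.8e-10). NAC2-like (LOC101267475) had 338, 341 and 411 FPKM at 8 h and 136, 103 and 125 FPKM at 0 h (1.58 ± 0.13, adjusted p = 2.9e-08). ABR1-like (LOC101251084), named after an AP2 repressor of abscisic acid responses in Arabidopsis, had 237, 198 and 233 FPKM at 8 h and 0.64, 2.1 and 0.51 FPKM at 0 h (6.82 ± 0.25, adjusted p = 4.5e-12). ATHB-12-like (LOC101264731), a homeobox factor named after one induced by abscisic acid in Arabidopsis, had 216, 196 and 245 FPKM at 8 h and 0.59, 2.49 and 0.41 FPKM at 0 h (6.79 ± 0.25, adjusted p = 4.5e-12). VAHOX1 had 864, 874 and 1084 FPKM at 8 h and 134, 178 and 129 FPKM at 0 h (2.68 ± 0.13, adjusted p = 6.1e-11). All of these lay above 0 h in every library, which for the largest rise of a family was a condition of the choice.

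Among the factors that fell, WRKY3 had 37.3, 62 and 109.6 FPKM at 8 h and 888, 713 and 851 FPKM at 0 h (log2 change -3.66 ± 0.28, limma adjusted p = 9.1e-09). WRKY53 (LOC101258576) had 2.87, 3.79 and 3.53 FPKM at 8 h and 119, 83 and 107 FPKM at 0 h (-4.55 ± 0.24, adjusted p = 1.9e-10). The bHLH factor MYC1 had 2.6, 1.76 and 2.62 FPKM at 8 h and 68.9, 65.2 and 72.8 FPKM at 0 h (-4.4 ± 0.12, adjusted p = 3.2e-13). MYB44-like (LOC101249225) had 46.5, 44.6 and 45.8 FPKM at 8 h and 473, 412 and 426 FPKM at 0 h (-3.23 ± 0.12, adjusted p = 3.6e-12). Myb4 (LOC101262488) had 0.37, 0.4 and 0.92 FPKM at 8 h and 121, 91.8 and 107 FPKM at 0 h (-6.12 ± 0.20, adjusted p = 1.4e-12). ERF4 (LOC101249381), the most abundant AP2/ERF gene, had 299, 379 and 282 FPKM at 8 h and 851, 793 and 772 FPKM at 0 h (-1.34 ± 0.14, adjusted p = 5.2e-07). WRKY40 (LOC101243805) rose, with 21.2, 65.2 and 104 FPKM at 8 h and 2.39, 2.35 and 0.46 FPKM at 0 h (4.4 ± 0.49, adjusted p = 7.6e-07), and had been higher at 2 h, at 311, 144 and 177 FPKM. MYB24-like (LOC101248880) had 156, 131 and 219 FPKM at 8 h and 0, 13.1 and 0 FPKM at 0 h (6.1 ± 0.71, or 7.37 without EX0r2, adjusted p = 1.3e-06), with EX0r2 alone above 0 at 0 h, and its q in the authors' deposited table was 0.1.

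Clock genes separated by their usual hour. Of 5 morning factors tested, 4 fell and 0 rose (median log2 change -4.19, -4.27 without EX0r2). LHY (LOC101261662), a dawn repressor, had 9.38, 11.5 and 11.6 FPKM at 8 h and 404, 444 and 423 FPKM at 0 h (log2 change -5.17 ± 0.17, limma adjusted p = 1.6e-12), while its level at 2 h was 456, 405 and 413 FPKM. The other morning factors that fell, named after their values were seen, were REVEILLE 7 (LOC101255972, log2 change -4.39), REVEILLE 1 (LOC101261079, -4.19) and REVEILLE 8 (LOC101253545, -4.13). REVEILLE 6 (LOC101259846) had 19.8, 22.4 and 19.1 FPKM at 8 h and 18.3, 19.8 and 20.2 FPKM at 0 h and did not pass (adjusted p = 0.55). Of 25 evening genes, 18 rose and 4 fell, while 3 missed the threshold (median log2 change 1.04, 1.05 without EX0r2). GIGANTEA-like (LOC101258346) had 152, 154 and 128 FPKM at 8 h and 0.11, 0.78 and 0.17 FPKM at 0 h (6.78 ± 0.18, adjusted p = 2.7e-13), and 54.2, 88.7 and 60.8 FPKM at 2 h.

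The evening genes that fell were ELF3-like 2 (LOC101265040, -1.18 ± 0.13, adjusted p = 9.5e-07), an APRR5 gene at low level (LOC101256648, -1.29 ± 0.14, adjusted p = 5e-07), a PCL1-like gene (LOC101249222, -0.93 ± 0.24, adjusted p = 0.0029) and ELF4-like 3 (LOC101256688, -0.6 ± 0.21, adjusted p = 0.019). ELF4-like 3 did not pass without EX8r1, without EX0r2 or without both number 2 libraries of 0 h (adjusted p 0.051 to 0.076), nor with a pseudocount of 0.1 (0.11). At 2 h the median change was -0.57 for the morning factors and -0.19 for the evening genes. The same opposite pattern at 8 h was measured in Micro-TOM, whose medians were -3.43 for morning and 1.07 for evening genes. Unsalted leaves of the same hour were not analysed here, so these values hold the hour of day and the salt together.

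**Figure D3:**
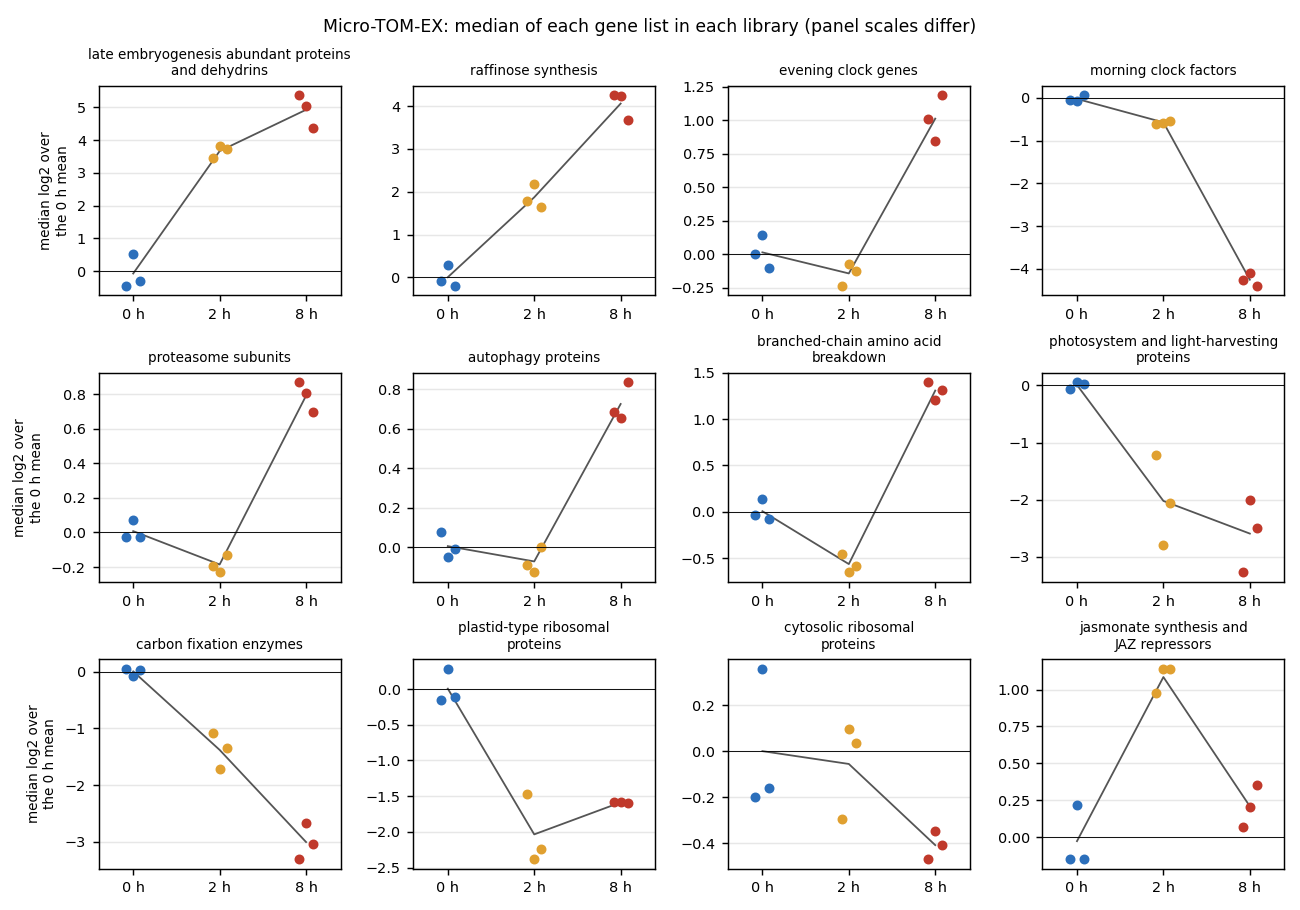
Median of 12 gene lists in each Micro-TOM-EX library at 0, 2 and 8 h, as the log2 difference from each gene's mean at 0 h; points are libraries, lines join the group means, and panel scales differ. LEA proteins and raffinose genes were up at both hours, clock, proteasome, autophagy and branched-chain amino acid genes moved mainly between 2 and 8 h, and the jasmonate list was highest at 2 h.

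Genes of photosynthesis fell in most steps examined. Of 64 photosystem and light-harvesting proteins, which capture light and move electrons, 1 rose and 54 fell, while 9 missed the threshold (median log2 change -2.64, -2.58 without EX0r2). The subunit psbS, which lets leaves shed excess light as heat, had 6.48, 25.9 and 8.14 FPKM at 8 h and 693, 795 and 790.4 FPKM at 0 h (log2 change -5.95 ± 0.54, limma adjusted p = 7.1e-08). PSBR, a photosystem II protein and the most abundant of the list, had 2680.1, 2953 and 3512 FPKM at 8 h and 10321, 7854 and 9822 FPKM at 0 h (-1.61 ± 0.20, adjusted p = 2.2e-06). The member that rose was a chlorophyll a-b binding protein gene, LOC101267774, with 1478, 3269 and 2066 FPKM at 8 h and 398, 381 and 494 FPKM at 0 h (2.35 ± 0.48, adjusted p = 0.00043). At 2 h the median change was -1.98, and psbS had 532, 143 and 189 FPKM, with EX2r1 well above the other libraries of that hour. Genes of near-identical sequence, such as those for chlorophyll-binding proteins and the small subunit of Rubisco, share reads, so single copies are uncertain.

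Carbon fixation enzymes of the Calvin cycle held 1 and 23 of 26 higher and lower (median log2 change -3.14, -3.3 without EX0r2). Rubisco small subunit gene Rbcs-3B had 1846, 2699 and 2727 FPKM at 8 h and 11484, 11298 and 11624 FPKM at 0 h (log2 change -2.26 ± 0.29, limma adjusted p = 3.8e-06), and the groups were far apart. The single rise was the aldolase LOC109118742, under 1 FPKM in all 6 libraries (0.64 ± 0.13, adjusted p = 0.00043). Photorespiration, which recycles the by-product of Rubisco's reaction with oxygen, held 4 and 11 of 21 (median log2 change -0.75, -0.6 without EX0r2). Glycolate oxidase GLO1 (LOC544106) had 257, 320.3 and 306 FPKM at 8 h and 2377, 1508 and 2184 FPKM at 0 h (-2.76 ± 0.22, adjusted p = 1.5e-08). The glycine cleavage H protein SlADH11A4a had 5.58, 12.4 and 9.18 FPKM at 8 h and 362, 458 and 352 FPKM at 0 h (-5.33 ± 0.35, adjusted p = 2.2e-09). Among the photorespiration genes that rose were the serine hydroxymethyltransferases, LOC101250548 (0.78 ± 0.09, adjusted p = 1.3e-06), LOC101259725 (0.91 ± 0.18, adjusted p = 0.00029) and LOC101263138 (0.34 ± 0.12, adjusted p = 0.023). LOC101263138 did not pass without EX8r3, EX0r1 or EX0r3 (adjusted p 0.05 to 0.11).

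Chlorophyll synthesis held 1 and 16 of 20 higher and lower (median log2 change -2.16, -2.09 without EX0r2), and the plastid-type ribosome, which makes part of the photosynthetic proteins, 2 and 39 of 43 (median log2 change -1.55, -1.46 without EX0r2). The cyclase gene LOC101257518 of the magnesium branch had 56.2, 154 and 86.2 FPKM at 8 h and 1576, 1373 and 1696 FPKM at 0 h (log2 change -4.07 ± 0.48, limma adjusted p = 1.3e-06). Chlorophyllide a oxygenase (LOC101261422), which makes chlorophyll b, had 2.92, 6.85 and 3.96 FPKM at 8 h and 126, 119 and 129 FPKM at 0 h (-4.55 ± 0.29, adjusted p = 1.3e-09). The rise in this list, geranylgeranyl reductase-like LOC101266160 (0.4 ± 0.17, adjusted p = 0.045), did not pass without EX8r1, EX8r2, EX0r1 or EX0r3 (adjusted p 0.06 to 0.17) or with no filter (0.056). Ribosomal protein S20 (LOC101261139) had 5.12, 3.79 and 7.36 FPKM at 8 h and 68.5, 98.9 and 75.7 FPKM at 0 h (-3.7 ± 0.47, adjusted p = 3.2e-06). L1 (LOC101256124), the most abundant, had 211, 253 and 269 FPKM at 8 h and 599.7, 542 and 579 FPKM at 0 h (-1.23 ± 0.24, adjusted p = 0.00022). The plastid-type ribosomal genes that rose were S1 (LOC101245144, 1.5 ± 0.20, adjusted p = 7.3e-06) and rps16 (0.64 ± 0.21, adjusted p = 0.013), whose groups overlapped and which did not pass without EX8r1 or EX0r1 (adjusted p 0.074 to 0.087), with the compared groups alone (0.096) or by the q of the authors' deposited table (0.13). Chlorophyll breakdown was divided, 5 and 6 of 12 (median -1.02). Chlorophyll b reductase NYC1 (LOC101258872), an enzyme that opens breakdown, had 173, 169 and 143 FPKM at 8 h and 12.8, 16.1 and 13.5 FPKM at 0 h (3.43 ± 0.11, adjusted p = 1.2e-12). Pheophytinase (LOC101268836) had 6.28, 5.37 and 3.84 FPKM at 8 h and 37.2, 41.4 and 40.3 FPKM at 0 h (-2.74 ± 0.24, adjusted p = 4.9e-08). Carotenoid synthesis held 3 and 10 of 13 (median -1.25): phytoene synthase Psy1 had 9.12, 12.7 and 8.1 FPKM at 8 h and 301, 228 and 286 FPKM at 0 h (-4.65 ± 0.22, adjusted p = 5.7e-11) and the beta-carotene hydroxylase CrtR-b2 had 31.7, 35.5 and 23.4 FPKM at 8 h and 0.7, 2.39 and 0.95 FPKM at 0 h (3.78 ± 0.37, adjusted p = 1.7e-07).

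For the label of leaf tissue, Rubisco small subunit and chlorophyll-binding genes were used as mesophyll markers. They are of the kinds reported above as lower at 8 h, so at that hour they give no independent check of the tissue. Their sum over 29 tested genes was 7003.5 to 17056 FPKM in the 8 h libraries and 44017 to 46763 FPKM in those of 0 h, and 21 of them fell. In whole leaves, fewer cells of a type and less RNA per cell cannot be told apart. Of 4 guard cell and 3 xylem genes, 0 passed. Trichome genes held 2 and 0 of 6 higher and lower, phloem genes 2 and 6 of 12 (median log2 change -0.94, -0.41 without EX0r2), root genes 1 and 1 of 2 and flower and anther genes 5 and 10 of 20, and 0 of 3 fruit genes reached the level for testing. Phloem genes summed to 110.1 to 149 FPKM at 8 h and 189.9 to 281 FPKM at 0 h, with 1 of them listed at 0 in all 6 libraries. Trichome genes summed to 125 to 319.9 FPKM at 8 h and 42 to 55.6 FPKM at 0 h, with 3 at 0. Guard cell genes summed to 8.71 to 14 FPKM at 8 h and 8.6 to 10.9 FPKM at 0 h, xylem genes to 2.04 to 4.99 FPKM at 8 h and 1.28 to 2.81 FPKM at 0 h and root genes to 0.93 to 1.76 FPKM at 8 h and 1.98 to 3.35 FPKM at 0 h. Flower and anther genes summed to 621 to 722 FPKM at 8 h and 779 to 943 FPKM at 0 h. Trichome sums were thus higher at 8 h without overlap, although 2 of the 6 genes passed and the median log2 change of the 6 was 0.17. Phloem, root and flower sums were lower without overlap. Among all genes tested, 74.7% had no overlap of the groups. The part of other cell types in the results was not tested.

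Cytosolic ribosomal proteins, of the ribosomes outside plastids, were lower by small amounts. Of 207 tested, 6 rose and 116 fell, while 85 missed the threshold (median log2 change -0.39, -0.22 without EX0r2). Without EX0r2 19 were higher and 83 lower, and EX0r2 lay above the other 0 h libraries in the list median. The most abundant, S26-3 (LOC101248302), had 404, 428 and 404 FPKM at 8 h and 784, 1051 and 727 FPKM at 0 h (log2 change -1.03 ± 0.13, limma adjusted p = 2.5e-06). S15 (LOC101244902) had 4.93, 6.58 and 7.64 FPKM at 8 h and 18.2, 35 and 20.6 FPKM at 0 h (-1.76 ± 0.21, adjusted p = 1.4e-06). The L18a-like protein LOC101244058 rose, with 173, 159 and 165 FPKM at 8 h and 88.2, 69.8 and 88 FPKM at 0 h (1.01 ± 0.11, adjusted p = 3.8e-07). Ribosome biogenesis genes, which assemble ribosomes in the nucleolus, held 14 and 12 of 46 higher and lower (median log2 change -0.1, 0.05 without EX0r2).

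Most genes of protein and amino acid breakdown had higher transcript levels at 8 h than at 0 h, while their list medians at 2 h were negative. Of 43 proteasome subunits, which degrade tagged proteins, 32 rose and 1 fell, while 10 missed the threshold (median log2 change 0.8, 0.87 without EX0r2), and at 2 h the median was -0.22. Against 2 h, a comparison that shares the 8 h libraries, 41 were higher at 8 h and 1 lower, where 45.3% and 23.7% (69.0% in all) of the genes tested were. Alpha type-2-B (LOC101247839) had 30.4, 26.7 and 21.3 FPKM at 8 h and 1.45, 4.74 and 1.69 FPKM at 0 h (log2 change 3 ± 0.27, limma adjusted p = 5.7e-08). The beta type-1 subunit LOC101266585, the most abundant, had 202, 197 and 208 FPKM at 8 h and 218, 234 and 226 FPKM at 0 h and did not pass (adjusted p = 0.079), and RPN13 (LOC101258384) fell (-0.58 ± 0.12, adjusted p = 0.00056). Autophagy proteins, which deliver cell contents to the vacuole, held 16 and 2 of 24 higher and lower (median log2 change 0.73, 0.66 without EX0r2, -0.09 at 2 h). ATG8f (LOC100736469), which coats the growing autophagosome, had 321, 281 and 349 FPKM at 8 h and 50.6, 48.5 and 44.1 FPKM at 0 h (2.7 ± 0.15, adjusted p = 2.7e-10). ATG101 (LOC101253244, -1.97 ± 0.13, adjusted p = 2.8e-09) and ATG18f-like (LOC101262080, -0.93 ± 0.18, adjusted p = 0.00021) fell.

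Branched-chain amino acid breakdown, which feeds respiration when sugar is short, held 21 and 3 of 28 higher and lower (median log2 change 1.32, 1.48 without EX0r2, -0.6 at 2 h). The dehydrogenase subunit LOC101254378 of the pathway's committed step had 247, 96.8 and 207 FPKM at 8 h and 2.33, 7.28 and 2.48 FPKM at 0 h (log2 change 5.23 ± 0.37, limma adjusted p = 4.6e-09), with 1.64, 1.04 and 0.68 FPKM at 2 h. Methylcrotonoyl-CoA carboxylase (LOC101262668), of leucine breakdown, had 262, 189 and 248 FPKM at 8 h and 12.1, 15.7 and 9.38 FPKM at 0 h (4.14 ± 0.23, adjusted p = 2.6e-10). Those that fell were the hydroxyisobutyrate dehydrogenases LOC101245206 (-1.02 ± 0.17, adjusted p = 5.2e-05) and LOC101263543 (-1.02 ± 0.19, adjusted p = 0.00018) and the hydrolase LOC101267525 (-0.29 ± 0.09, adjusted p = 0.012), the hydrolase with a q of 0.11 in the authors' deposited table. Nitrogen assimilation held 4 and 6 of 12 (median -0.54). Asparagine synthetase LEAS1, which stores nitrogen in asparagine, had 2071, 1416 and 2395 FPKM at 8 h and 12.7, 30.4 and 8.85 FPKM at 0 h (6.89 ± 0.46, adjusted p = 2.1e-09). Glutamate dehydrogenase gdh1 had 222, 135 and 317 FPKM at 8 h and 9.57, 21.1 and 10.2 FPKM at 0 h (3.95 ± 0.32, adjusted p = 2e-08). Cytosolic glutamine synthetase gts1 had 0.33, 1.4 and 1.39 FPKM at 8 h and 30.4, 95.1 and 43 FPKM at 0 h (-4.7 ± 0.40, adjusted p = 4.1e-08). Another gene of this list, GS1, was higher at 8 h in the authors' deposited table (log2 change 1.3, authors' q = 1.2e-27).

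Sugar genes changed in both directions at large size. Starch breakdown held 6 and 8 of 23 (median -0.14) higher and lower, starch synthesis 5 and 7 of 14 (median -0.74), sugar transporters 17 and 11 of 36 (median 0.13, 0.26 without EX0r2), and invertases and sucrose synthesis 6 and 9 of 22 (median -0.21). Beta-amylase BAM1 had 676, 835 and 553 FPKM at 8 h and 158, 173 and 162 FPKM at 0 h (log2 change 2.04 ± 0.17, limma adjusted p = 3.1e-08), after 1572, 1652 and 1380.5 FPKM at 2 h, whereas beta-amylase 3-like (LOC101259175) had 3.92, 6.88 and 8.05 FPKM at 8 h and 419, 242 and 365 FPKM at 0 h (-5.57 ± 0.31, adjusted p = 3.5e-10). Granule-bound starch synthase GBSS1, which makes amylose, had 11.1, 30.6 and 15 FPKM at 8 h and 235, 273 and 266 FPKM at 0 h (-3.82 ± 0.34, adjusted p = 6.4e-08). Soluble starch synthase 1 (LOC101259221) had 51.9, 47.8 and 50.2 FPKM at 8 h and 2.49, 3.75 and 2.4 FPKM at 0 h (3.73 ± 0.17, adjusted p = 4.6e-11). The hexose transporter ht2 had 81, 106 and 169 FPKM at 8 h and 0.92, 3.98 and 0.71 FPKM at 0 h (5.49 ± 0.31, adjusted p = 3.7e-10). Sucrose synthase sus3 had 361, 394 and 489 FPKM at 8 h and 9.01, 25.2 and 8.18 FPKM at 0 h (4.94 ± 0.28, adjusted p = 4e-10). The sucrose-phosphate synthase gene LOC101055573, of the enzyme that makes sucrose for export, had 0.49, 0.25 and 0.46 FPKM at 8 h and 29.4, 18.7 and 26.7 FPKM at 0 h (-4.19 ± 0.22, adjusted p = 2e-10). No groups overlapped in these genes, which for the largest rise and fall of each list was a condition of the choice.

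More genes of wall loosening and auxin response were lower than higher. Expansins and xyloglucan enzymes held 9 and 23 of 40 higher and lower (median log2 change -1.34, -0.82 without EX0r2), and pectin enzymes 9 and 27 of 55 (median log2 change -0.6, -0.56 without EX0r2). Pectate lyase 18 (LOC101254471) had 3.65, 8.1 and 1.45 FPKM at 8 h and 147, 113 and 194 FPKM at 0 h (log2 change -4.99 ± 0.37, limma adjusted p = 7.9e-09). The xyloglucan enzyme LOC101245668 had 32.4, 36.8 and 29.2 FPKM at 8 h and 0.23, 0.71 and 0.06 FPKM at 0 h (4.69 ± 0.21, adjusted p = 3.3e-11) and pectin acetylesterase 8-like (LOC101257588) 412, 320.2 and 330.5 FPKM at 8 h and 23.4, 52.2 and 28.5 FPKM at 0 h (3.39 ± 0.26, adjusted p = 1.1e-08). Auxin response genes, which mediate growth by this hormone, held 20 and 62 of 105 (median log2 change -0.96, -0.85 without EX0r2). IAA3, a repressor of auxin response, had 92.9, 114 and 155 FPKM at 8 h and 585, 445 and 490.5 FPKM at 0 h (-2.08 ± 0.24, adjusted p = 1e-06). The SAUR68-like growth gene LOC101253080 had 0.61, 0.2 and 0 FPKM at 8 h and 15.9, 24 and 16.7 FPKM at 0 h (-3.97 ± 0.30, adjusted p = 8.7e-09). The largest rise of this list was IAA8, with 140.2, 204 and 173 FPKM at 8 h and 1.95, 9.85 and 1.14 FPKM at 0 h (5.39 ± 0.39, or 6.09 without EX0r2, adjusted p = 6.3e-09). Histones, cyclins and DNA replication genes held 11 and 21 of 61 (median -0.12, 0.09 without EX0r2), or 14 and 15 without EX0r2 (median 0.09), and histone H1 (LOC101248710) had 5.86, 9.52 and 7.93 FPKM at 8 h and 136, 175 and 109.7 FPKM at 0 h (-4.01 ± 0.26, adjusted p = 1.4e-09). Cellulose synthases held 8 and 4 of 19 (median 0.24), with 2 lower without EX0r2.

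Gibberellin metabolism held 8 and 2 of 13 higher and lower (median log2 change 1.31, 1.77 without EX0r2). Gibberellin 20-oxidase 20ox-1, which makes the growth hormone's precursors, had 0, 0.08 and 0.04 FPKM at 8 h and 8.85, 15.3 and 11.4 FPKM at 0 h (log2 change -3.6 ± 0.21, limma adjusted p = 5.6e-10). The 2-beta-dioxygenase 8 gene LOC101263073, of the enzymes that inactivate gibberellins, had 45.2, 30.9 and 27.3 FPKM at 8 h and 0.08, 0.12 and 0.04 FPKM at 0 h (5 ± 0.37, adjusted p = 7.2e-09). The other fall was GA2ox2 (-1.56 ± 0.29, adjusted p = 0.00016), also an inactivating enzyme.

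Wound and defence genes were higher in part. Proteinase inhibitors and polyphenol oxidases, anti-insect proteins of wounded tomato leaves, held 24 and 2 of 38 higher and lower (median log2 change 1.58, 1.53 without EX0r2). The inhibitor ARPI had 46.7, 223 and 81.6 FPKM at 8 h and 0.23, 1.32 and 0.15 FPKM at 0 h (log2 change 6.01 ± 0.46, limma adjusted p = 1.1e-08). The Kunitz inhibitor LOC101244562 had 246, 423 and 405 FPKM at 8 h and 3.03, 34.3 and 1.93 FPKM at 0 h (5.54 ± 0.68, or 6.66 without EX0r2, adjusted p = 2.4e-06), with EX0r2 the highest 0 h library in both. The falls were threonine deaminase 1 (LOC100037737, -1.32 ± 0.30, adjusted p = 0.0011), a list member of neither kind by its name, and polyphenol oxidase D (LOC101258176, -0.64 ± 0.24, adjusted p = 0.025). The oxidase was under 1 FPKM in these 6 libraries and did not pass without EX8r1, EX8r2, EX8r3 or EX0r3 (adjusted p 0.051 to 0.081). Pathogenesis-related proteins held 33 and 23 of 76 (median log2 change 0.32, 0.65 without EX0r2). Chitinase CHI3 had 10180.3, 6840.0 and 11637 FPKM at 8 h and 24.3, 668 and 22.7 FPKM at 0 h (6.98 ± 0.86, or 8.57 without EX0r2, adjusted p = 2.3e-06), and EX0r2 stood far above the other 0 h libraries. PR-1-like LOC101267821 had 0.08, 0.22 and 0.08 FPKM at 8 h and 12.9, 16.5 and 14.7 FPKM at 0 h (-3.8 ± 0.15, adjusted p = 1.4e-11).

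Jasmonate synthesis genes and JAZ repressors, the hormone system of wounding, held 12 and 8 of 29 higher and lower (median log2 change 0.05, 0.18 without EX0r2, 1.14 at 2 h). AOS2 had 52, 77.8 and 128 FPKM at 8 h and 9.62, 14.2 and 10.7 FPKM at 0 h (log2 change 2.72 ± 0.23, limma adjusted p = 3.7e-08). OPR1 had 10.4, 8.36 and 10.9 FPKM at 8 h and 86.5, 88.5 and 93.2 FPKM at 0 h (-3.06 ± 0.15, adjusted p = 7.2e-11). The repressor JAZ3 (LOC100191114) had 155, 188 and 181 FPKM at 8 h and 196, 174 and 163 FPKM at 0 h and did not pass (adjusted p = 0.89). Ethylene genes held 22 and 13 of 45 (median 0.26), headed by ACO3. The ACS10 aminotransferase LOC101257494 had 5.82, 6.5 and 5.7 FPKM at 8 h and 108, 76.6 and 99.4 FPKM at 0 h (-3.76 ± 0.33, adjusted p = 5.2e-08). At 8 h, 18 of the 29 jasmonate genes were lower than at 2 h and 3 were higher, where 23.7% and 45.3% of all genes tested were.

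Phenylpropanoid and flavonoid enzymes held 43 and 32 of 94 higher and lower (median log2 change 0.13, 0.28 without EX0r2). LOC101248924, named as a leucoanthocyanidin dioxygenase of the anthocyanin route, had 283, 288 and 219 FPKM at 8 h and 0.19, 1.55 and 0 FPKM at 0 h (log2 change 7.5 ± 0.36, limma adjusted p = 6.2e-11). The glucosyltransferase LOC101261193 had 1.33, 1.71 and 2.76 FPKM at 8 h and 133, 139 and 157 FPKM at 0 h (-5.64 ± 0.21, adjusted p = 4.5e-12). Lipid-transfer and wax genes, which build the water-proof leaf surface, held 26 and 13 of 49 (median log2 change 0.71, 0.81 without EX0r2). The lipid-transfer protein LOC101266080 had 7189, 6244 and 6596 FPKM at 8 h and 351, 710.5 and 406 FPKM at 0 h (3.83 ± 0.27, adjusted p = 3.7e-09). LOC101257400 had 8.06, 23.5 and 10 FPKM at 8 h and 115, 216 and 148 FPKM at 0 h (-3.53 ± 0.47, adjusted p = 5.9e-06). No groups overlapped in these genes, which for the largest rise and fall of each list was a condition of the choice.

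**Figure D4:**
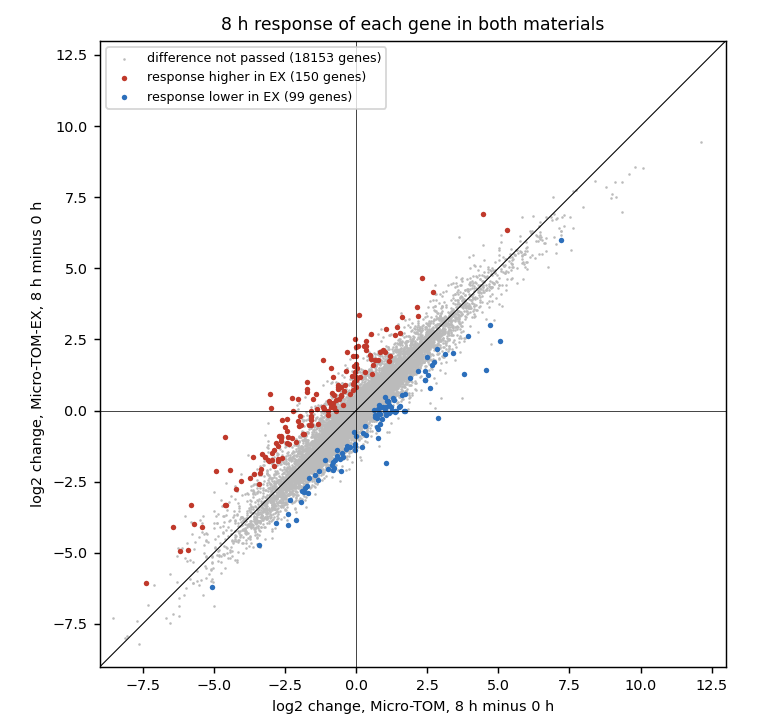
Log2 change of each tested gene, 8 h minus 0 h, in Micro-TOM-EX (vertical axis) and Micro-TOM (horizontal axis), with the line of equal change. Coloured points are the 249 genes whose response differed between the materials, 150 higher and 99 lower in Micro-TOM-EX, and the other 18153 genes are grey.

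The 8 h response of Micro-TOM-EX was set against that of Micro-TOM, which has its own 0 h and 8 h libraries, by testing the difference of the log2 changes, Micro-TOM-EX minus Micro-TOM. In Micro-TOM 12990 genes (70.6%) changed between 8 h and 0 h. The difference passed in 249 genes, 1.35% of those tested (150 higher and 99 lower in Micro-TOM-EX), and its median SE was 0.239. Rescaling the libraries by their median ratios gave 198 and 76, so the split between the directions depended on the scaling. Leaving out single libraries gave 120 to 365 genes, with 120, 159 and 133 without EX8r1, EX8r2 and EX0r3, and 153, 131 and 151 without the Micro-TOM libraries MT8r1, MT8r2 and MT0r3. Without MT0r1, 262 genes were higher in Micro-TOM-EX, and without EX0r2 61 were lower. Opposite called changes were found in 18 genes that rose in Micro-TOM-EX and fell in Micro-TOM and in 7 that fell in Micro-TOM-EX and rose in Micro-TOM. Both materials rose in 22 and fell in 50 of the 150, and rose in 26 and fell in 31 of the 99, by different amounts. Of the 10 largest rises and 10 largest falls in Micro-TOM-EX, 0 were among the 249. As the 249 are 1.35% of the genes tested, so few genes cannot show whether the largest changes differ from the rest.

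Genes are named here among those whose difference passed, with a mean of at least 5 FPKM in at least 1 group and a descriptive name. The most positive difference was in the cellulose synthase-like D3 gene LOC101247596, with 3.55, 3.59 and 2.71 FPKM at 8 h and 7.29, 10.2 and 4.7 at 0 h in Micro-TOM-EX, against 2.99, 3.2 and 2.68 and 36.3, 236 and 102 FPKM in Micro-TOM (limma difference 3.69 ± 0.61, adjusted p = 0.0075). The libraries of the materials overlapped at 8 h and lay apart at 0 h. The glycine-rich RNA-binding protein gene LOC101262262 had 452, 362 and 491 FPKM at 8 h and 273, 294 and 294 at 0 h in Micro-TOM-EX, against 133, 112 and 112 and 975, 872 and 1086 FPKM in Micro-TOM (difference 3.61 ± 0.19, adjusted p = 3.3e-08). The lignin-forming peroxidase LOC101246783 had 20.7, 7.06 and 15.2 FPKM at 8 h and 17.4, 9.24 and 11.8 at 0 h in Micro-TOM-EX, against 4.62, 4.19 and 8.58 and 50.7, 61.8 and 40.9 FPKM in Micro-TOM (difference 3.05 ± 0.51, adjusted p = 0.0083). In both of these, all 8 h libraries lay below all 0 h libraries in Micro-TOM, which was not so in Micro-TOM-EX. STAY-GREEN-like LOC101258237, of a family that acts in chlorophyll breakdown, had 8.08, 21.8 and 13.7 FPKM at 8 h and 0.06, 1.6 and 0 at 0 h in Micro-TOM-EX, against 0.06, 0.06 and 0.12 and 0, 0 and 0 FPKM in Micro-TOM (difference 3.26 ± 0.44, adjusted p = 0.0018). The wound-induced protein gene LOC101251891 had 414, 241 and 442 FPKM at 8 h and 108, 116 and 84.9 at 0 h in Micro-TOM-EX, against 78.3, 128 and 126 and 191, 294 and 263 FPKM in Micro-TOM (difference 2.96 ± 0.34, adjusted p = 0.00038).

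On the negative side, the receptor-like kinase gene LOC101258158 had 0.23, 0.22 and 0.23 FPKM at 8 h and 0.45, 0.41 and 0.52 at 0 h in Micro-TOM-EX, against 7.33, 6.37 and 6.92 and 0.03, 0.11 and 0.04 FPKM in Micro-TOM (limma difference -3.14 ± 0.13, adjusted p = 3.2e-09). MYB82 (LOC101268880) had 2.8, 0.57 and 1.89 FPKM at 8 h and 6.69, 11 and 7.65 at 0 h in Micro-TOM-EX, against 12.1, 19.4 and 20.4 and 8.26, 4.93 and 11 FPKM in Micro-TOM (difference -2.88 ± 0.47, adjusted p = 0.0062), with a fall in Micro-TOM-EX and a rise in Micro-TOM (log2 change 1.04, adjusted p = 0.01). The agmatine coumaroyltransferase-2-like gene LOC101244961, named for an enzyme of phenolic amides, had 16, 24.6 and 16.1 FPKM at 8 h and 1.95, 4.78 and 1.78 at 0 h in Micro-TOM-EX, against 93.2, 110.5 and 129 and 2.48, 1.9 and 2.54 FPKM in Micro-TOM (difference -2.64 ± 0.53, adjusted p = 0.022), and did not pass without EX8r1, EX0r2 or MT8r2, the second Micro-TOM library of 8 h (adjusted p 0.051 to 0.061), nor with a pseudocount of 0.1 (0.054) or without both number 2 libraries of 0 h (0.08). The ripening-regulated DDTFR18 had 52.8, 50 and 46.1 FPKM at 8 h and 22.4, 20.4 and 16.2 at 0 h in Micro-TOM-EX, against 45.6, 42.6 and 49.1 and 1.88, 2.09 and 3.19 FPKM in Micro-TOM (difference -2.5 ± 0.20, adjusted p = 9.5e-06), with the materials apart at 0 h and overlapping at 8 h. EIN3-binding F-box protein 1-like (LOC101248690), a brake on ethylene response, had 45, 51.9 and 86 FPKM at 8 h and 30.9, 35.4 and 33.6 at 0 h in Micro-TOM-EX, against 112, 189 and 162 and 22.6, 25.3 and 23.8 FPKM in Micro-TOM (difference -1.81 ± 0.31, adjusted p = 0.0085).

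**Figure D5:**
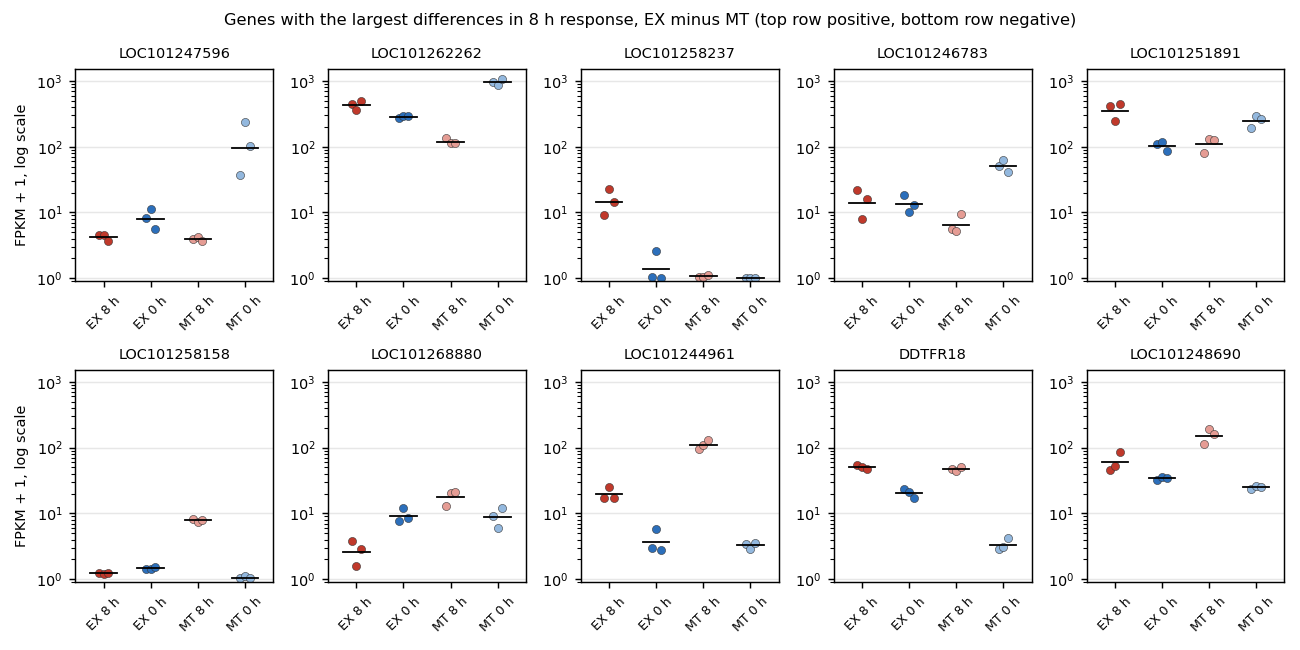
Levels of the 5 genes with the most positive (top) and the 5 with the most negative (bottom) difference of 8 h responses, among genes whose difference passed the test, with a mean of at least 5 FPKM in a group and a descriptive name, as FPKM + 1 on a log scale, in each library of Micro-TOM-EX (EX) and Micro-TOM (MT) at 8 h and 0 h; bars are means of the log values. LOC101247596 and DDTFR18 differ between the materials mainly at 0 h, and LOC101258237 and LOC101258158 mainly at 8 h.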

How the data were processed

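RNA sequencing of leaves was deposited as 1 table of 23808 genes, in which the authors give an FPKM value for each of 18 libraries, with the log2 fold change of each comparison and its p-value and its q-value, also the authors' own. The submitters' processing notes name RSEM 1.2.12, DESeq2 1.4.5, HISAT2 2.0.4 and Bowtie2 2.2.5 without their roles. The genome build is not given in the sources used here, and positions are those of the deposited table. A further 18 FPKM columns repeat the names and values of the first and were not used. The deposited table also gives gene names, and the RefSeq gene table held 21978 of its IDs.

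Tests covered 18402 genes that reached 1 FPKM in 3 or more libraries, on log2(FPKM + 1), since FPKM values are not counts, with limma 3.58.1 in R 4.3.3. The model had 6 group means over 18 libraries, so all groups share 1 estimate of spread, with a mean-dependent prior and Benjamini-Hochberg adjustment at 0.05. Depth was read from the spacing of low FPKM values of genes with 1 transcript (91.7% to 96.6% of values whole within 0.15 of a fragment).

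Members and lists were chosen with earlier results of these data known. Named genes were the 10 largest rises and falls with at least 5 FPKM in the higher group, no overlap and a descriptive name. In each list they were the largest rise and the largest fall under the same conditions, the member of highest mean and up to 4 members against the majority. Core salt genes were named whatever their values. Also named were the 5 most positive and most negative differences between the materials among genes that passed the test of the difference, with at least 5 FPKM in a group and a descriptive name. Alternatives were median-ratio scaling, other filters, a pseudocount of 0.1, a replicate block, the compared groups alone, leaving out libraries, and the authors' deposited table.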

Additional observations from a re-analysis of the deposited data

Results flagged for a closer look

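The named genes below had an 8 h response that differed between Micro-TOM-EX and Micro-TOM by the test of the difference of log2 changes (Micro-TOM-EX minus Micro-TOM, ± SE), which 1.35% of all genes tested passed. The abscisic acid receptor gene LOC101258963 (PYL4) had 8.83, 6.05 and 8.45 FPKM at 8 h and 3.74, 3.84 and 3.31 FPKM at 0 h in Micro-TOM-EX, against 5.27, 8.09 and 7.91 and 10.4, 11.1 and 12.3 FPKM in Micro-TOM, a difference of 1.53 ± 0.26 (limma adjusted p = 0.0095). Its libraries of 8 h lay above those of 0 h in Micro-TOM-EX, while the change in Micro-TOM was -0.62. The autophagy gene LOC101262080 (ATG18f-like) had 1.24, 1.39 and 1.65 FPKM at 8 h and 3.03, 4.7 and 3.24 FPKM at 0 h in Micro-TOM-EX, against 1.65, 1.26 and 1.28 and 11.8, 9.66 and 13.7 FPKM in Micro-TOM, a difference of 1.47 ± 0.25 (limma adjusted p = 0.0083), with a fall in both materials. The clock gene LOC101256648 (APRR5) had 0.11, 0.16 and 0.16 FPKM at 8 h and 1.4, 2.55 and 1.54 FPKM at 0 h in Micro-TOM-EX, against 0.22, 0 and 0.11 and 0.34, 0.17 and 0.39 FPKM in Micro-TOM, a difference of -1.06 ± 0.19 (limma adjusted p = 0.013), which did not pass with a pseudocount of 0.1 (adjusted p = 0.17). The galactinol synthase gene LOC101244339 had 3.68, 3.44 and 4.25 FPKM at 8 h and 0.1, 0.3 and 0.1 FPKM at 0 h in Micro-TOM-EX, against 0.68, 0.73 and 1.25 and 0.1, 0.05 and 0 FPKM in Micro-TOM, a difference of 1.2 ± 0.25 (limma adjusted p = 0.024). It did not pass without EX8r1, EX0r1, EX0r3, MT8r1 or MT8r2 (adjusted p 0.052 to 0.07), with the replicate block (0.059) or with a pseudocount of 0.1 (0.51).

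The other genes are those of the 5 most positive and 5 most negative differences among genes that passed the test of the difference, with a mean of at least 5 FPKM in at least 1 group and a descriptive name. Their levels are in the report. The differences were 3.69 for LOC101247596, 3.61 for LOC101262262, 3.26 for LOC101258237, 3.05 for LOC101246783 and 2.96 for LOC101251891. On the negative side they were -3.14 for LOC101258158, -2.88 for LOC101268880, -2.64 for LOC101244961, -2.5 for DDTFR18 and -1.81 for LOC101248690.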

How the results depend on the processing

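The count of genes that differed between 8 h and 0 h in Micro-TOM-EX was within 1.5 times of 13115 under every alternative run, at 10997 with a filter of 5 FPKM, 14115 with no filter, 13003 after median-ratio scaling (6627 higher and 6376 lower), and 13219 of 22997 genes with a q in the authors' deposited table. Leaving out single libraries gave 12315 to 12692. In that deposited table the log2 fold changes of the 10 largest rises were 3.65 (LAPA1) to 9.61 (7k-LTP), against 7.52 to 9.43 here, and LE25 and LOC101248072 stood at 4.87 and 4.09. The replicate numbers were not taken as pairs: deviations of same-numbered libraries of 8 h and 0 h correlated at 0.0628, 0.215 and 0.139, and libraries 1 and 2 correlated best with their own number while library 3 did not. Between the materials they correlated at -0.378, 0.0145 and -0.0368 at 8 h and at 0.475, 0.439 and 0.127 at 0 h, where 1 and 2 again correlated best with their own number. A fit with the replicate block called 13161 genes.

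The count of genes whose 8 h response differed between Micro-TOM-EX and Micro-TOM was less stable. It was 165 (45 lower in Micro-TOM-EX) with a pseudocount of 0.1, 274 after median-ratio scaling and 238 with the replicate block. Leaving out single libraries gave 120 to 365 genes, 76 to 262 higher and 40 to 113 lower in Micro-TOM-EX. These fits hold fewer libraries, and the cause of the changes in count was not tested. No named gene past the threshold changed sign under the alternatives run, and the other genes were not checked for this. Of 65 list medians, 9 near 0 changed sign under at least 1 alternative. Without EX0r2 that of ribosome biogenesis was 0.05 (-0.1 with all libraries) and that of histones, cyclins and DNA replication 0.09 (-0.12). The others ranged over the alternatives from -0.06 to 0.55 for polyamine synthesis, -0.15 to 0.2 for superoxide dismutases and related enzymes, -0.11 to 0.68 for class III peroxidases (the highest with a filter of 5 FPKM), -0.09 to 0.16 for WRKY factors, -0.12 to 0.26 for guard cell, -0.03 to 0.26 for xylem and -0.27 to 0.05 for root markers. Depth limits genes at low level, where the pseudocount of 1 FPKM is large against the value.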
